A study of Arabidopsis thaliana with 16 samples.

Results

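The regions described here are the NP:HSFA1b peaks that were called under non-stress (NS) conditions, had no counterpart under heat stress (HS), and had their summit inside a protein-coding gene. They were selected on measured values: an interval of the NP NS list on chromosomes 1 to 5 was taken when it shared not 1 bp with any interval of the NP HS list and when its summit, the base with the most fragments, lay between the start and end of a protein-coding gene. This rule chose 355 of 955 NP NS peaks, which lay in 317 genes. Of all NP NS peaks, 58.7% had no overlapping NP HS peak and 58.1% had the summit in a protein-coding gene. A further 206 NS-only peaks had their summit outside protein-coding genes. The NS peaks that overlapped an HS peak numbered 200 inside genes and 194 outside them, and the HS list held 447 HS-only peaks inside genes.

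The data are ChIP-seq peaks, that is, regions enriched when chromatin was precipitated through a tagged protein and its DNA sequenced. The protein was the transcription factor HSFA1b of Arabidopsis thaliana, and the series held 16 samples of 8 groups. NP:HSFA1b HS and NP:HSFA1b NS plants were Col-0 plants that carried a genomic copy of HSFA1b fused to eYFP under its own promoter, and an antibody to GFP precipitated the fusion. 35S:HSFA1b HS and 35S:HSFA1b NS plants were Col-0 plants that overexpressed HSFA1b fused to RFP from the viral 35S promoter, and an antibody to RFP was used. Each of these 4 groups had its control group, Col-0 leaves under the same treatment precipitated with the same antibody. Heat stress was 30 min at 37 °C in air of 86% relative humidity, and NS plants stayed at 23 °C and 60% relative humidity. Plants were 5 weeks old and fully expanded leaves were taken. The native construct was studied in a single line, and all of its cells also kept the untagged HSFA1b gene. Each group had 2 libraries, which the peak caller pooled, so that every peak has 1 value per condition, no replicate error can be given, and no test between conditions was possible. Shares of peaks are given with exact (Clopper-Pearson) 95% intervals and medians with order-statistic intervals at 95% where they are set side by side, and both cover counting error only.

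Heat shock factors are transcription factors that bind as trimers to heat shock elements (HSEs), alternating inverted repeats of GAA, and class A members such as HSFA1b act as activators. In unstressed cells these factors are largely held inactive by chaperones, and heat releases them to the promoters of chaperone genes. Sites of such factors usually lie close upstream of the transcription start site (TSS), so that peaks within gene bodies are the less familiar kind.

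The sequence at the strongest of the NS-only genic summits is shown first, because most of these regions lay in transcribed and often coding sequence. All letters were read from the RefSeq copy of TAIR10 on the strand of the host gene, 5′ to 3′, and the capital marks the summit base. The peak at PBS1 had the highest fold enrichment (FE) of all, and its summit lay in the 5′ UTR. The other windows are the 5 with the highest FE among summits in coding exons or introns.
PBS1, 5′ UTR, chr5:4176564-4176593, plus strand: ttaattcgcaattgGtaatagtgtgaacac
AT1G18975, intron, chr1:6556729-6556829, plus strand: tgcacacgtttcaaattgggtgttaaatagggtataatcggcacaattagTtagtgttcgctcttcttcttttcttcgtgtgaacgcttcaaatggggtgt
IGMT4, coding exon, chr1:7399248-7399348, minus strand: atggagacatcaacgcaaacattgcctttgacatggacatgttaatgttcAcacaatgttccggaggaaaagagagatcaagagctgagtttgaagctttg
WAVH1, coding exon, chr2:9647167-9647267, plus strand: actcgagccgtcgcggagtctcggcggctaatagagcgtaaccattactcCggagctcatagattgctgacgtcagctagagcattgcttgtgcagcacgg
AT3G59950, coding exon, chr3:22144488-22144588, minus strand: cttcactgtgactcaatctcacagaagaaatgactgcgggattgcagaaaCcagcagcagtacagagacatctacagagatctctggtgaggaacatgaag
BPS1, coding exon, chr1:201349-201449, plus strand: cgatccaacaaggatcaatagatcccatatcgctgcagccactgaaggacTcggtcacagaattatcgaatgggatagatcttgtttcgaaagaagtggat

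None of the 355 summit windows held the 3-repeat HSE. The letters searched were GAANNTTCNNGAA, on both strands, within 50 bp on either side of the summit. A count of 0 of 355 allows a share of up to 0.845% when its limit is set at 3 counts, as for every count of 0 given here, rather than at an exact bound. The same element was at 8.50% of the 200 shared genic summits (5.03% to 13.3%), at 5.15% of the 447 HS-only genic summits (3.29% to 7.62%) and at 3.04% of all NP NS summits. Windows of the same length tiled end to end over all protein-coding genes held it in 0.248% of 626593 cases.

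The shorter HSE of 2 repeats (GAANNTTC or TTCNNGAA, which the 3-repeat element contains) was at 28 of 355 NS-only genic summits, or 7.89% (5.30% to 11.2%). It was at 23.0% of shared genic summits (17.4% to 29.5%), at 26.2% of HS-only genic summits (22.2% to 30.5%) and at 12.3% of all NP NS summits. The tiled gene windows held it in 8.73% of cases, so that the NS-only genic share was near the level of gene sequence in general. Among peaks with an FE under 3 the share was 8.65% of 266 NS-only genic peaks (5.56% to 12.7%), against 16.7% of 72 shared genic peaks (8.92% to 27.3%) and 7.69% of 52 HS-only genic peaks (2.14% to 18.5%), and these intervals overlapped. The FE of HS-only peaks comes from the HS pool, which had another depth. The 8 strongest peaks with such a match are printed with the GAA and TTC letters in capitals, because they show which gene bodies carried one.
EDA25, 5′ UTR, chr1:27273912-27273941, minus strand: ggatttgcattGAAtgTTCtagcgattggg
OPR3, coding exon, chr2:2359746-2359775, minus strand: accgttgtagaTTCttGAAacaagtagtgg
RAV2, 3′ UTR, chr1:25882051-25882080, plus strand: ttgtagagtcaTTCtcGAAattcaccactt
ZAR1, intron, chr3:18936090-18936119, plus strand: attagagatatTTCttGAAgttgcagggtc
AT4G27450, 3′ UTR, chr4:13727392-13727421, minus strand: ttttgcactctTTCagGAAcgaattgtgtt
AT2G26190, coding exon, chr2:11149927-11149956, minus strand: ggaggcttgacTTCaaGAAccaacagtttc
HBI1, coding exon, chr2:7954153-7954182, minus strand: catgaatccatTTCaaGAAcaagtagctgc
AT5G24500, coding exon, chr5:8367524-8367553, minus strand: agcctagaaaaGAAggTTCtttcggtatac

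These 8 matches were at FE 2.84 to 3.44. OPR3 makes the jasmonate precursor, ZAR1 is an intracellular immune receptor, and HBI1 is a basic helix-loop-helix factor that promotes growth and tempers immunity. The matches at EDA25, HBI1 and AT2G26190 came within 1 bp of the summit, whereas that at AT4G27450 was 30 bp away.

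The G-box (CACGTG, read the same on both strands), the core site of bZIP and bHLH factors, was at 11 of 355 NS-only genic summits, or 3.10% (1.56% to 5.48%). It was at 7.5% of shared genic summits (4.26% to 12.1%), at 4.92% of HS-only genic summits (3.11% to 7.36%) and at 7.02% of all NP NS summits. Tiled gene windows held it in 0.953% of cases, below the lower bound of the NS-only genic share. The 10 strongest peaks with a G-box are printed with the element in capitals, because its share at these summits stood above that of gene sequence.
LCB1, 3′ UTR, chr4:17221580-17221609, plus strand: gtgcataattgaCACGTGtcagtataacac
AT3G48800, 5′ UTR, chr3:18096852-18096881, minus strand: tgcagaaacacaCACGTGtcagtaagtgaa
AT5G21090, 3′ UTR, chr5:7167365-7167394, plus strand: taagaaagaaaaCACGTGttgtgcttccta
AT1G64455, coding exon, chr1:23941830-23941859, plus strand: gtgatgtgtgaaCACGTGcagcactttgac
AT5G11000, coding exon, chr5:3479790-3479819, minus strand: ttgaggaaagagCACGTGtttggagctagg
BLH4, coding exon, chr2:10108105-10108134, minus strand: gttcaccgtcgcCACGTGtcagcaagacgt
RXW8, within the gene but outside its transcripts, chr1:21732512-21732541, plus strand: ttttataaccgaCACGTGgcctaatcgtcg
DYL1, 3′ UTR, chr1:9934289-9934318, minus strand: actaattgaccgCACGTGgggtgtttgcag
AT2G44130, coding exon, chr2:18254090-18254119, plus strand: cgctgcgatgtcCACGTGgcatcgcgttgc
AT1G15670, coding exon, chr1:5390541-5390570, plus strand: cttcttgacctcCACGTGgcgcgtcgggaa

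At LCB1, which encodes a subunit of serine palmitoyltransferase, the enzyme that starts sphingolipid synthesis, the G-box contained the summit base itself and the FE was 3.92. It also contained the summit base at BLH4, a homeodomain factor (FE 2.5), and it came within 1 bp of the summit at AT3G48800 (FE 3.63) and within 2 bp at RXW8 (FE 2.24). At AT5G21090, AT1G64455 and DYL1 it was 36, 38 and 35 bp away. AT2G44130 and AT1G15670 encode kelch-repeat F-box proteins that turn over enzymes of phenylpropanoid synthesis, and their peaks were weaker, at FE 2.06 and 2.04. Of the other elements searched on both strands, GAGAGA was at 11.5% of NS-only genic summits against 11.1% of tiled gene windows, GAAGAAGAA at 2.54% against 2.33%, the telo box AAACCCTA at 2.54% against 1.30%, the site II element TGGGCC at 3.10% against 1.09%, and the unfolded-protein element core TGACGTGG at 0.282% against 0.181%. The site II element was also at 5.0% of shared genic summits and 3.13% of HS-only genic summits. Like that of the G-box, its NS-only genic interval (1.56% to 5.48%) lay above the share in tiled gene windows. The GC content of these windows had a median of 40.6% at NS-only genic summits (39.6% to 41.6%), 43.6% at shared genic summits (41.6% to 44.6%), 39.6% at HS-only genic summits and 38.6% in tiled gene windows.

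The NS-only genic peaks were low. Their FE, the deposited ratio of fragments at the summit to the local background, ran from 1.57 to 7.81 with a median of 2.58 (2.5 to 2.67) and quartiles of 2.24 and 3.0. The 200 shared genic peaks had a median FE of 3.39 (3.16 to 3.71) in the same NS list. The summit pileup, the number of fragments over the summit, had a median of 35 at NS-only genic peaks (35 to 37) and 61 at shared genic peaks (55 to 65). Width differed little, with medians of 382 bp at NS-only genic peaks and 384 bp at shared genic peaks. These values are a description, because a lower peak is more easily missed in the other list and the rule selects on that. Of the NS-only genic peaks, 27 had an FE under 2, the limit the study applied in addition, and 32 were wider than 1000 bp.

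**Figure D1:**
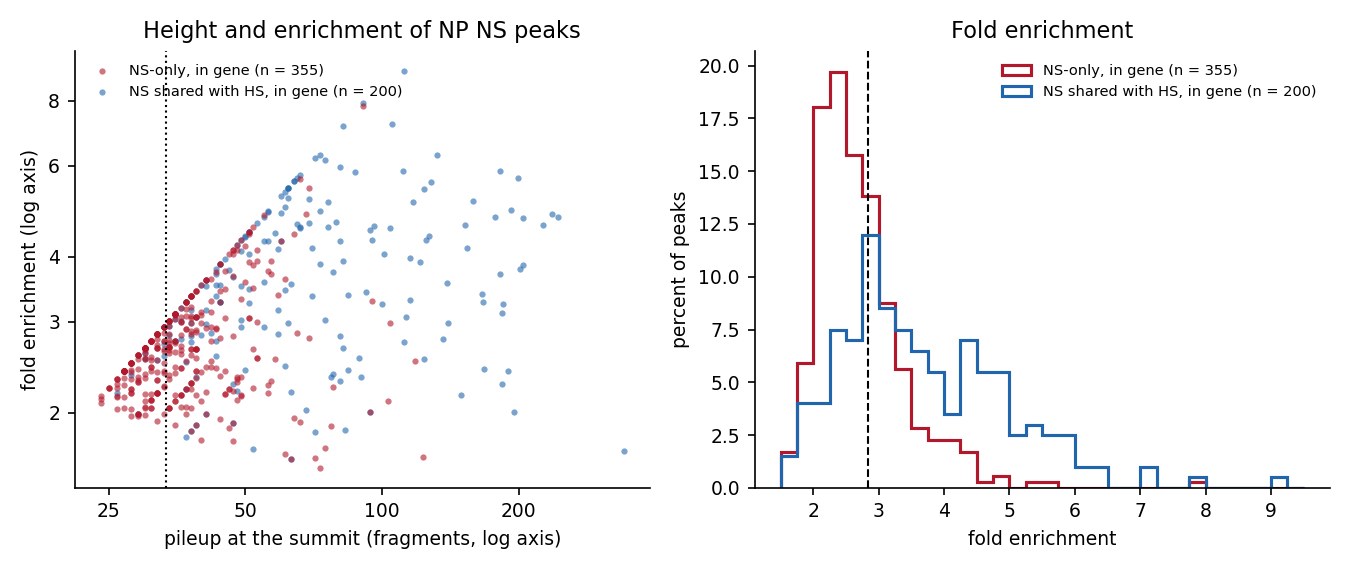
Left, summit pileup in fragments against fold enrichment, both on log axes, for each NS-only genic peak and each NS genic peak shared with HS. Right, the distribution of fold enrichment in percent of peaks. The dotted line marks 33.4 fragments, the NS height that corresponds to the lowest HS pileup of 12, and the dashed line marks a fold enrichment of 2.83, the smallest that was called in the HS list at its lowest background. Most NS-only genic peaks sit at the low end of both axes, and 236 of 355 lie left of the dashed line.

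The HS list could show less than the NS list at this end of the range. The NP HS pool held 2438702 treatment fragments and the NP NS pool 6783161, a ratio of 0.36, and the control pools held 1139036 and 1686242. The lowest pileup of any NP HS peak was 12, which corresponds to 33.4 fragments at the depth of the NS pool. Of the NS-only genic peaks, 138 had a lower pileup than that, or 38.9% (33.8% to 44.2%), against 18 of 200 shared genic peaks (9.0%, 5.42% to 13.9%). At the lowest background of each pool the smallest FE called was 2.83 in the HS list and 2.15 in the NS list, and 236 NS-only genic peaks were under 2.83, or 66.5% (61.3% to 71.4%), against 58 shared genic peaks (29%, 22.8% to 35.8%). At higher backgrounds a smaller FE was called, and the HS list held 108 of 1259 peaks under 2.83, so that this value is no limit for every region. Among NS peaks at the lowest background, where it applies, 48 of 99 NS-only genic peaks and 5 of 43 shared genic peaks were under it. The lists give no HS value where nothing was called, so that a loss of binding and a peak missed at the HS depth cannot be told apart.

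The NS-only genic peaks lay well inside the rule's limit on overlap in most cases. The nearest HS peak was 27304 bp away at the median, over 10 kb away for 249 NS-only genic peaks and under 500 bp away for 16. Just inside the rule were peaks at AT3G06760 (21 bp from an HS peak), SZF1 (68 bp), AT5G22050 (71 bp), AT2G23120 (120 bp) and WIH2 (165 bp), with FE 2.75, 2.18, 3.0, 2.40 and 2.04 in the same order. Just outside it were NS peaks that overlapped an HS peak by 26 bp at XBAT34, 29 bp at SZF1, 54 bp at SOBIR1, 67 bp at AT2G06000 and 76 bp at RAP2.4, with FE 3.16, 2.27, 2.20, 2.19 and 2.31. The FE of these peaks thus ran from 2.04 to 3.0 inside the limit and from 2.19 to 3.16 outside it.

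The summits lay further into the gene than those of the other genic peaks. Measured from the gene start to its end, the median position was 61.3% of the gene length for NS-only genic peaks (56.8% to 67.2%), 31.2% for shared genic peaks (18.0% to 41.8%) and 21.5% for HS-only genic peaks (15% to 28.2%). Within 250 bp of the gene start were 9.01% of NS-only genic summits (6.25% to 12.5%), 43.0% of shared genic summits (36.0% to 50.2%) and 43.6% of HS-only genic summits (39.0% to 48.4%), and 10.5% of all bases of protein-coding genes are that close to a start. Among peaks with an FE under 3 these shares were 6.02% of NS-only genic (3.48% to 9.58%), 30.6% of shared genic (20.2% to 42.5%) and 15.4% of HS-only genic summits (6.88% to 28.1%). Within 250 bp of the gene end were 24.2% of NS-only genic summits (19.9% to 29%), 14% of shared genic summits (9.51% to 19.6%) and 13.2% of HS-only genic summits (10.2% to 16.7%). The share of gene bases that close to an end is the same as for the start, 10.5%. The whole interval lay inside the host gene for 231 of the 355 peaks. Distances to neighbouring genes were not measured, so that peaks at gene ends may also lie near another gene. The last 20% of the gene held 115 of the 355 NS-only genic summits, and the first 20% held 49. Host genes, each counted once, had a median length of 2178 bp, against 2078 bp for all 27444 protein-coding genes.

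**Figure D2:**
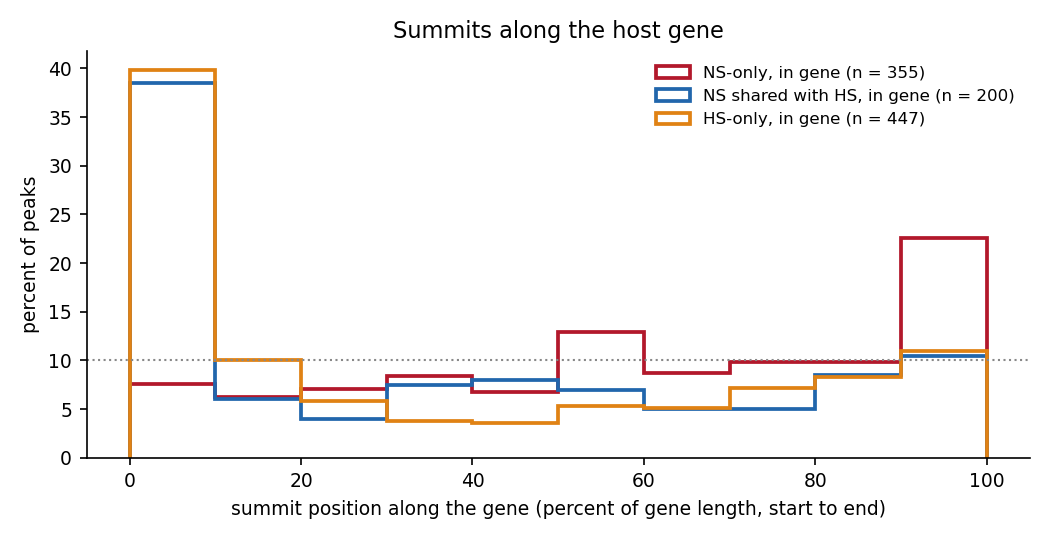
Position of the summit along the host gene in percent of its length, in 10 bins, as percent of the peaks of each set. The dotted line marks the level of an even spread. Shared and HS-only genic summits crowd in the first bin, and NS-only genic summits are spread along the gene with their highest bin at the end.

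By annotated feature, 171 of the 355 summits lay in a coding exon, which is 48.2% (42.9% to 53.5%), against 39.5% of shared genic summits (32.7% to 46.6%) and 33.1% of HS-only genic summits (28.8% to 37.7%). The 3′ UTR held 28.7% of NS-only genic summits (24.1% to 33.7%), 16.5% of shared genic summits (11.6% to 22.4%) and 13.2% of HS-only genic summits (10.2% to 16.7%). Introns held 13.5% (10.1% to 17.5%), 2.5% (0.817% to 5.74%) and 7.83% (5.51% to 10.7%) of the same sets. The 5′ UTR held 9.01% of NS-only genic summits (6.25% to 12.5%), 41.5% of shared genic summits (34.6% to 48.7%) and 45.9% of HS-only genic summits (41.2% to 50.6%). Of all bases of protein-coding genes, 51.6% are coding, 11.3% 3′ UTR, 28.0% intronic and 9.09% 5′ UTR, so that the NS-only genic summits were near the make-up of genes in coding exons and 5′ UTRs, above it in 3′ UTRs and below it in introns. Among peaks with an FE under 3, the coding share was 52.6% of NS-only genic peaks (46.4% to 58.8%), 45.8% of shared genic peaks (34.0% to 58.0%) and 63.5% of HS-only genic peaks (49% to 76.4%). The 5′ UTR share under that FE was 6.77% of NS-only genic (4.06% to 10.5%), 26.4% of shared genic (16.7% to 38.1%) and 13.5% of HS-only genic peaks (5.59% to 25.8%), so that the interval of the HS-only peaks overlapped that of either NS set. Here too the FE of HS-only peaks comes from the HS pool and does not match the NS sets in height. In the study, broad peaks lying on strongly expressed genes were set aside as false. Transcript levels were not analysed here, and their part in these peaks was not tested.

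**Figure D3:**
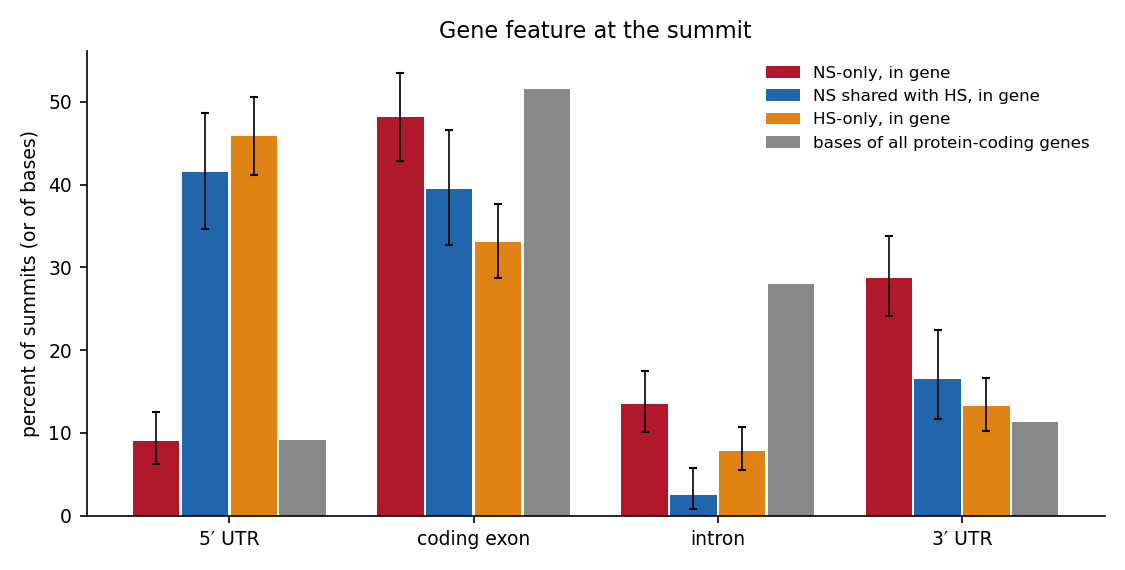
Percent of summits in each annotated feature for NS-only genic peaks (355), NS genic peaks shared with HS (200) and HS-only genic peaks (447), beside the percent of all protein-coding gene bases in that feature. Whiskers are exact 95% intervals and cover counting error only. NS-only genic summits stand at 9.01% in 5′ UTRs, close to the 9.09% of gene bases, where the other sets exceed 40%.

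The features differed with peak height. Of the 20 NS-only genic peaks with an FE of at least 4, 5 had a coding summit, 7 a 3′ UTR summit and 6 a 5′ UTR summit, whereas of the 134 with an FE from 2 to 2.5, 67 had a coding summit, 35 a 3′ UTR summit and 8 a 5′ UTR summit. The median position ran from 53.5% of the gene length under an FE of 2 (27 peaks, 32.5% to 62.6%) to 78.2% at an FE of at least 4 (20 peaks, 28.9% to 92.5%), and these intervals overlapped.

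The strongest peak, at FE 7.81 with 91 fragments, lay 72 bp inside PBS1, a kinase whose cleavage by a bacterial effector triggers immunity. Next were AT1G18975 (FE 5.67, intron) and AT4G04925 (FE 5.42, 5′ UTR), both of uncharacterized product, and U2B'', a protein of the spliceosomal U2 particle (FE 4.85, 3′ UTR, 50 bp from the gene end). IGMT4, an O-methyltransferase of indole glucosinolate synthesis, had an FE of 4.82 in a coding exon. Promoter-near summits in 5′ UTRs also stood at WRKY29, a defence transcription factor (FE 4.48, 54 bp from the start), and at FER1, the iron store ferritin (FE 4.48, 193 bp). Summits in 3′ UTRs stood at AT5G60680 (FE 4.56), at PAA2, a copper-transporting ATPase of the thylakoid (FE 4.43), at AT5G19150 (FE 4.42), at AT2G32150 (FE 4.22) and at AT2G41410, a calcium-binding EF-hand protein (FE 4.13). The others of the 15 strongest were WAVH1, a RING-type protein (FE 4.30, coding exon), AT3G59950, a peptidase of the autophagy family C54 (FE 4.29, coding exon), and AFR, a kelch-repeat protein of phytochrome A signalling (FE 4.20, within the gene but outside its transcripts and within a long non-coding RNA gene on the other strand). Apart from PBS1 all of these lay between FE 4.13 and 5.67, and no replicate spread was there to order them.

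Heat shock factors and chaperones made up 9 of the 317 host genes (2.84%), against 8.63% of 197 shared host genes and 1.08% of all protein-coding genes. The 5 host genes with the highest FE in this list were J20, a chloroplast DnaJ co-chaperone (FE 3.10, 3′ UTR), HSFA8 (FE 3.10, 3′ UTR, 33 bp from the gene end), the DnaJ-domain gene AT3G13310 (FE 3.08, coding exon), HSFA7A (FE 2.75, intron) and HSF4, also known as HSFB1, a repressor class factor (FE 2.67, intron). AT1G72416, another DnaJ-domain gene, had its summit in the 5′ UTR (FE 2.58), AT5G07340, a calreticulin-family chaperone of the endoplasmic reticulum, in the 3′ UTR (FE 2.30), and AT1G56300, a further DnaJ-domain gene, in the 3′ UTR (FE 2.19). Of the 9 genes, 4 also had a separate NP HS peak, against 24 of all 317 host genes. The FE of that peak was 4.36 in J20, 5.45 in HSFA7A, 2.68 in HSF4 and 4.72 in AT5G07340. At these 4 genes HSFA1b signal was thus called under both conditions, at different places in the gene.

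The remaining member of this list was the HSFA1b gene itself (AT5G16820, named HSF3 in the annotation), with a summit in the 5′ UTR 64 bp from the start, FE 2.24 and 52 fragments over 713 bp. NP:HSFA1b plants carry a second copy of this locus as the transgene, and what that copy adds to the peak was not tested. Of 17 loci picked from those that the study names, 3 held NS-only genic peaks: HSFA1b, CRY1, a blue light receptor (FE 2.67, 2 bp from the gene start), and SZF1, a CCCH zinc finger protein induced by salt and elicitors. The 17 are not all of the study's loci. Its targets MYC2, JAZ6 and ERF2 and its factor HBI1, for example, held such peaks too. SZF1 held 2 of them, in the coding exon (FE 1.95) and in the 3′ UTR (FE 2.18), on either side of an NS peak that touched the HS peak by 29 bp.

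The word list of transcription factors was the largest, with 30 host genes (9.46%, against 5.77% of all protein-coding genes and 10.7% of shared host genes). It was matched on words of product names, so that it also held RING-type proteins (WAVH1, RDUF1) and a DHHC zinc finger protein (TIP1). ERF2, ERF-1 and ERF104 were listed under hormones instead. The 30 genes are thus not a count of transcription factors. The highest FE in this list stood at WRKY29 (FE 4.48), WAVH1 (FE 4.30, listed for its zinc finger), AT3G11290 (FE 4.13, 5′ UTR) and HAT3.1, a homeodomain protein (FE 4.05, 3′ UTR). Disease resistance genes numbered 9 (2.84%, against 1.28% of all genes and 1.02% of shared host genes). They included AT5G10750 (FE 3.49), AT3G19690, of the pathogenesis-related 1 family (FE 3.36), and the TIR-type immune receptor genes AT3G04210 (FE 2.68) and AT5G38850 (FE 2.59). Hormone genes numbered 8 (2.52%, against 0.998% of all genes and 1.52% of shared host genes), with AT1G56220 (FE 3.29), the ethylene response factors ERF2 (FE 2.87) and ERF-1 (FE 2.67), and JAZ6, a repressor of jasmonate responses (FE 2.75). Protein kinases numbered 14 (4.42%, against 3.24% of all genes and 3.05% of shared host genes), led by PBS1, then CPK5, a calcium-dependent kinase of immune signalling (FE 3.36), AT4G11900 (FE 3.01) and CRK11 (FE 3.01). Among the 14, CRK6, CRK8, EP1, CRK10 and CRK11 lie close together on chromosome 4 (AT4G23140 to AT4G23190), so that these are not separate places in the genome.

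All 4 host genes of the photosynthesis list had their summit in the 3′ UTR close to the gene end: LHCA2 at 52 bp, CAB1 at 39 bp, PSAF at 115 bp and LHCB4.2 at 236 bp from it. LHCA2, CAB1 and LHCB4.2 encode chlorophyll-binding antenna proteins and PSAF a subunit of photosystem I, and their FE was 2.22, 2.19, 2.05 and 1.85. At CAB1 the summit also lay in a gene on the other strand. This list made up 1.26% of host genes, against 0.343% of all genes and 1.02% of shared host genes. The remaining 6 lists did not exceed their share of all genes, and most rested on few host genes. Translation had 3 host genes (0.946%, against 1.89% of all genes and 1.52% of shared host genes) and RNA processing 4 (1.26%, against 2.98% and 1.52%). Ubiquitin and proteasome had 10 (3.15%, against 4.98% and 4.06%) and cell wall 4 (1.26%, against 1.8% and 3.05%). Transport had 8 (2.52%), level with the 2.55% of all genes, against 0.508% of shared host genes. Genes described as transposon-related had 0 of 317, where 3 counts would be 0.946%, against 0.379% of all genes, so that this 0 shows no shortage. The differences in these lists were not tested. Examples were RPS28 (FE 3.05), LOS1 (elongation factor 2, FE 2.52) and AT3G16565 (FE 2.41) for translation, RS31a, a splicing factor (FE 3.46), AT2G45810 (FE 2.65), AT3G61520 (FE 2.44) and CP29 (FE 2.04) for RNA processing, and PEN3 (FE 3.37), AT2G46320 (FE 3.04), NRT1:2, a nitrate transporter (FE 3.01) and PUP18 (FE 2.95) for transport. The cell wall genes were CSLC04, a xyloglucan backbone synthase (FE 3.61), PMR6 (FE 3.18), XTH24 (FE 3.10) and AT4G08410 (FE 3.08), and AT4G15475 (FE 3.01) and ATL6 (FE 2.93) followed WAVH1 and HAT3.1 in the ubiquitin list.

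Several NS-only peaks in 1 gene were found in 32 genes, which held 70 of the 355 peaks. PEN3, an ABC transporter of the plasma membrane needed for resistance to non-host fungi, held 4, at 493, 2218, 3909 and 5688 bp from its start with FE 2.15, 1.63, 2.85 and 3.37. IGMT4 held 3, at 330, 949 and 1438 bp with FE 2.98, 2.98 and 4.82, and CSLC04 held 3, at 679, 1619 and 3220 bp with FE 2.67, 3.61 and 2.27. In these 3 genes the peaks were spread from the front to the back of the gene and no NP HS peak was called. AT2G07806 held 4, but its sequence also occurs in the mitochondrial genome.

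A further 28 genes held 2 each. Among them were WRKY33, a regulator of resistance to necrotrophic fungi (FE 2.37 and 2.68), ZAR1 (FE 3.06 and 2.75), SARD1 (FE 2.78 and 2.84) and CBP60G (FE 2.39 and 2.83), regulators of salicylic acid synthesis, PLA2A, HIR2, ERF2 and the immune receptor genes AT5G41750 and AT1G58602. RAV2 and TEM1 are related repressors of flowering, and GRP7 is an RNA-binding protein under the circadian clock. The others were HBI1 (FE 2.91 and 3.61), MSS1, a hexose transporter, AT5G05600, LRX3, AT1G61890, TRX5, RSH2, AT3G52710, BGAL1, AT5G57710, AT5G14550, LOS1, EDA39, GSR 1, AT2G40270 and SZF1.

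**Figure D4:**
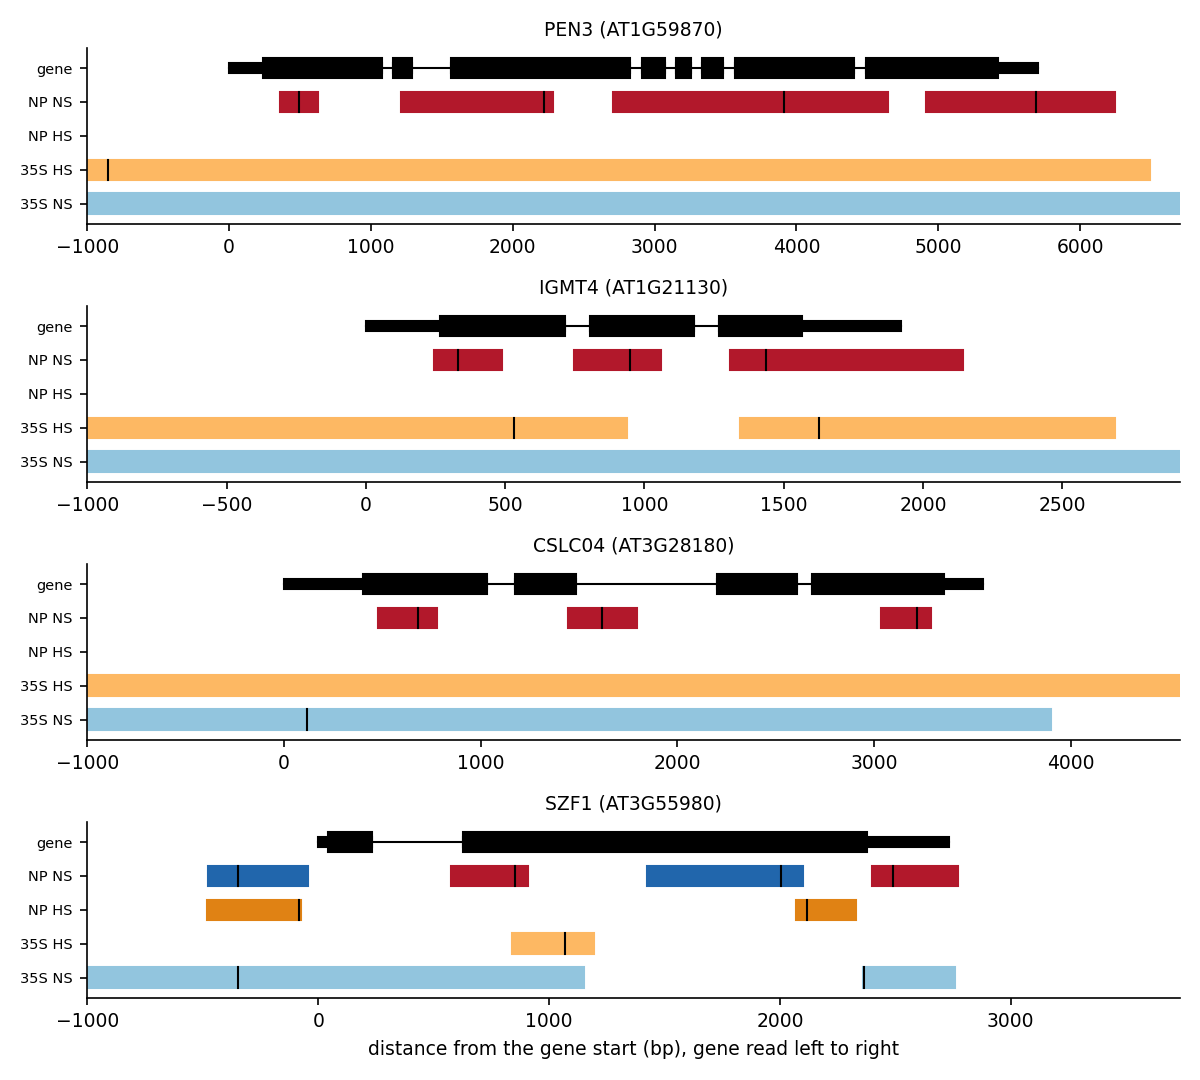
Peaks of the 4 lists at PEN3, IGMT4, CSLC04 and SZF1, in bp from the gene start with the gene read left to right. Thick black boxes are coding exons, thin boxes UTRs, and vertical ticks summits. In the NP NS row, red boxes are NS-only genic peaks and blue boxes other NS peaks. PEN3, IGMT4 and CSLC04 show no NP HS peak, and the 35S peaks extend beyond the gene in the first 3 maps.

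An NP HS peak elsewhere in the same gene accompanied 27 of the 355 peaks (7.61%, 5.07% to 10.9%), in 24 genes, and with 1 kb added on either side of the gene this was so for 43 peaks (12.1%, 8.91% to 16.0%). The same share over all protein-coding genes was not counted, so that neither value can be called high or low. The largest HS values in those genes were FE 11.4 at AT5G64400, 9.6 at NAC2, 8.28 at MYB73 and 7.08 at MYC2, the master regulator of jasmonate responses, against NS-only values of 2.69, 2.41, 1.87 and 2.90 at the same genes. The 2 lists are not on one scale, with a median FE of 4.36 in the NP HS list and 2.88 in the NP NS list. These HS values were also picked as the largest and lie elsewhere in the gene, so that they measure no gain in binding. The NS-only peak of MYC2 lay in the coding exon 526 bp from the HS peak.

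A gene annotated on the other strand also contained the summit of 20 NS-only genic peaks (5.63%, 3.47% to 8.57%), against 10 of 200 shared genic peaks (5.00%, 2.42% to 9.0%) and 3.8% of HS-only genic peaks. The partner was protein-coding for 14, and an antisense or long non-coding RNA gene for 6, at ZAR1 (both peaks), WRKY33, AFR, AT5G18470 and AT1G66880. ChIP fragments carry no strand, so that a summit cannot be given to either gene. A further limit of the same kind is that 15 peaks lay in more than 1 protein-coding gene, and the gene with the nearer start was then taken.

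The 35S:HSFA1b lists had no part in the choice of the peaks. Of the NS-only genic peaks, 210 overlapped a 35S HS peak, or 59.2% (53.8% to 64.3%), and 302 a 35S NS peak, or 85.1% (80.9% to 88.6%). Among all NP NS peaks 60.2% overlapped a 35S HS peak and 87.9% a 35S NS peak, so that the NS-only genic shares were close to those of the list they came from. Shared genic peaks stood at 72.5% (65.8% to 78.6%) for 35S HS and 95.5% (91.6% to 97.9%) for 35S NS. The 35S NS peaks that overlapped NS-only genic peaks had a median width of 3953 bp and reached 5098380 bp, and 89 of the 302 overlaps were with a 35S NS peak of at least 10 kb, so that an overlap places the 2 proteins only roughly. At the other NP NS peaks the median width was 2127 bp, and 117 of 537 overlaps were with a 35S NS peak of at least 10 kb.

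The overlap followed the chromosome. On chromosomes 1 to 5 in that order, 74.0% of 104, 45.6% of 57, 61.8% of 76, 6.67% of 45 and 78.1% of 73 NS-only genic peaks overlapped a 35S HS peak. The 35S HS peaks covered 51.9%, 6.56%, 31.7%, 1.25% and 45.7% of protein-coding gene bases on the same chromosomes. For 35S NS, 92.3%, 71.9%, 96.1%, 53.3% and 93.2% of NS-only genic peaks overlapped a peak, where 62.0%, 12.8%, 37.4%, 7.24% and 53.7% of gene bases were covered. Chromosome 4 was the lowest in each of these series, with 3 of 45 NS-only genic peaks overlapping a 35S HS peak, against 24 of the 78 other NP NS peaks there (30.8%).

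**Figure D5:**
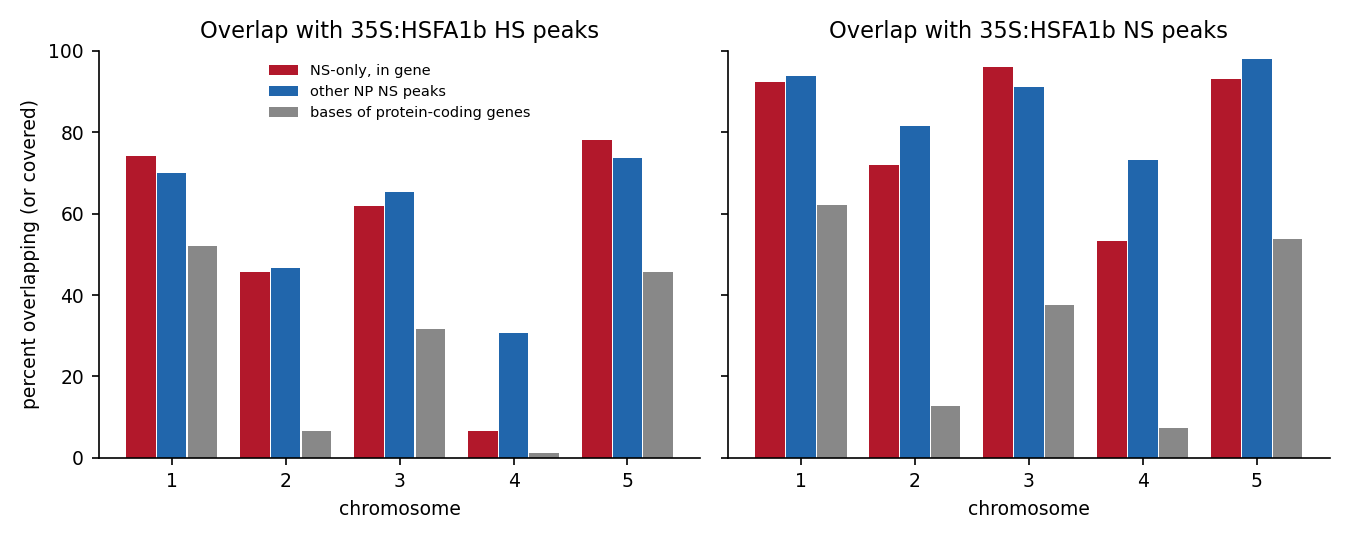
Percent of NS-only genic peaks and of the other 600 NP NS peaks that overlap a 35S HS peak (left) or a 35S NS peak (right), by chromosome, beside the percent of protein-coding gene bases that these 35S peaks cover. On chromosomes 2 and 4 few gene bases are covered, and 53.3% of NS-only genic peaks on chromosome 4 overlap a 35S NS peak.

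Summits matched less often than intervals. Each 35S peak has 1 summit, and the 35S NS peaks at NS-only genic peaks were wider than those at the other NP NS peaks. What this width adds to the summit shares was not tested. A 35S HS summit lay within 100 bp of 7.61% of NS-only genic summits (5.07% to 10.9%), 32.5% of shared genic summits (26.1% to 39.5%) and 18.8% of HS-only genic summits (15.3% to 22.7%). A 35S NS summit lay that close to 49 NS-only genic summits, or 13.8% (10.4% to 17.8%), against 47.0% of shared genic summits (39.9% to 54.2%), 36.2% of HS-only genic summits (31.8% to 40.9%) and 28.7% of all NP NS summits. Among peaks with an FE under 3 the 35S NS share was 10.5% of NS-only genic (7.11% to 14.9%), 30.6% of shared genic (20.2% to 42.5%) and 11.5% of HS-only genic summits (4.35% to 23.4%), the last by the FE of the HS pool. Within the NS-only genic peaks it was 7.41% of 27 under an FE of 2, 9.70% of 134 from 2 to 2.5, 12.4% of 105 from 2.5 to 3, 21.7% of 69 from 3 to 4 and 30.0% of 20 at 4 or more.

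Summits of both a 35S HS and a 35S NS peak lay within 100 bp of 14 NS-only genic summits (3.94%, 2.17% to 6.53%), against 22.0% of shared genic summits (16.5% to 28.4%). The strongest 10 of the 14 by NP FE were AT1G18975, U2B'', AT5G16120, AT3G52800, AT3G48800, AT5G10750, AT2G23321, HSFA8, AT1G72416 and MYB51, a regulator of indole glucosinolate synthesis. At U2B'' the 35S FE was 1.94 under HS and 2.49 under NS, at AT5G16120 1.65 under HS and 2.32 under NS, and at AT2G23321 1.74 under HS and 3.07 under NS. At HSFA8 it was 2.15 under HS and 2.43 under NS, at AT1G72416 2.41 and 2.89, and at MYB51 1.40 and 2.33. The FE was higher under NS at 13 of the 14, the exception being the immune receptor gene AT3G44670 (2.31 under HS and 1.97 under NS). The same order was found at 94 of 103 other NP NS peaks with both 35S summits as close (91.3%, against 92.9% for the 14). The pools differ in depth and in their controls and none has a replicate, so that these differences were not tested.

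In 22 of the 355 peaks the summit window did not occur only once: 16 windows had a further copy in the nuclear genome, and 6 others were found letter for letter in the mitochondrial genome. These 6 lay on chromosome 2 in AT2G07727, annotated as cytochrome b, in AT2G07658 and in AT2G07806 (4 peaks), with FE from 1.57 to 1.92. Reads of organellar DNA cannot be told apart from reads of these chromosome 2 genes. A further nuclear copy was thus at 4.51% of NS-only genic windows, against 2 of 200 shared genic windows, 12.1% of NS-only windows outside genes and 6.39% of all NP NS windows. A mitochondrial match was at 1.69% of NS-only genic windows, against 0 of 200 shared genic windows and 1.26% of all NP NS windows. Pericentromeric summits, which the study set aside, numbered 10 (2.82%, 1.36% to 5.12%), against 8.25% of NS-only peaks outside genes and 4.61% of all NP NS peaks.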

How the data were processed

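ChIP-seq peak lists of 4 groups were analysed, each deposited by the authors as 1 call on 2 pooled treatment libraries. Per the labels and the study's methods, reads were aligned to TAIR10 with GSNAP, allowing 1 mismatch, duplicates were removed with SAMtools, and peaks were called with MACS2 (version 2.0.10.20131028 per the file headers) at a q-value limit of 0.05. The control pools held 2 libraries, or 4 for 35S NS. Each deposited peak carries the pileup at its summit (coverage, a signal), the fold enrichment (a ratio to the local background) and its significance, of which the −log10 q-value was used. The background was recovered from pileup and fold enrichment with the pseudocount of 1 that the caller adds.

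Peaks were annotated with the RefSeq copy of TAIR10, whose gene models include 27444 protein-coding genes on chromosomes 1 to 5. A summit in several transcripts was called coding before 5′ UTR, 3′ UTR and intron. Where protein-coding genes overlapped, the one with the nearer start was the host. The named genes were the hosts of the 15 highest fold enrichments, of the 10 highest with 35S NS and HS summits within 100 bp, of the 10 highest with a G-box, all chaperone and up to 4 genes of each other word list, and the 5 peaks nearest the rule's limit on either side. Also named were genes with more than 1 peak and a selection of the loci that the study names. Word lists were matched to RefSeq product names, so genes without a descriptive product went uncounted. The 8 printed heat shock elements and the genes of the largest HS values were chosen after their values were seen. The peaks and the lists were chosen with earlier results of these data known.

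Python 3 scripts with pandas and numpy did the counting, and they were tested on simulated intervals and sequences. The alternatives tried are given in the closing section. Treatment fragments after filtering numbered 13481546 for 35S HS and 19579327 for 35S NS, with those of the NP pools given above.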

Additional observations from a re-analysis of the deposited data

Results flagged for a closer look

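The NP NS list also held 17 peaks on the mitochondrial genome, which enter no comparison, with fold enrichments from 1.53 to 2.24 and a median of 1.69. The NP HS list and both 35S lists held 0 such peaks. Their values bear on the 6 NS-only genic peaks of chromosome 2 whose summit windows also occur in the mitochondrial genome (fold enrichment 1.57 to 1.92), and the part of mitochondrial DNA in those 6 was not tested.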

How the results depend on the processing

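Under 14 settings 11 results gave 118 values besides the reported ones, of which 99 stayed within 1.5 times the reported count or within the 95% interval of the reported share or median. Keeping a fold enrichment of at least 3 left 89 peaks, with a median fold enrichment of 3.37, 34.8% coding summits, a median position of 74.1%, an overlap of 80.9% with 35S NS peaks, 23.6% with a 35S NS summit within 100 bp and 4.49% in a gene with an NP HS peak. Leaving out peaks within 500 bp of an NP HS peak gave 4.42% for the last share. Requiring the whole interval inside the gene left 231 peaks, with 64.1% coding summits and a median position of 53.6%. Requiring 35S peaks to cover 50% of the peak gave 53.0% for 35S HS, and counting 35S peaks only where their fold enrichment reached 2 gave 30.1% for 35S HS, 63.9% for 35S NS and 7.89% for 35S NS summits. A summit distance of 250 bp gave 22.5%, and a window of 100 bp on either side put a 2-repeat HSE at 14.4% of summits. Tiled gene windows of that greater length were not searched, so that this share has no gene level beside it. Keeping peaks that reach the lowest HS pileup at the HS depth, a setting chosen after seeing the data, left 217 peaks with a median fold enrichment of 2.83, 47.0% coding summits and a median position of 63.2%. Keeping the 333 peaks whose summit window occurs once, chosen likewise, gave 47.7% and 62.2%. The cause of these shifts was not tested beyond the construction of each setting.

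No paired analysis was possible because each list is a single call on pooled libraries, and for the same reason leaving out each library in turn was not done, the libraries having no lists of their own. The HS pool held 0.36 of the fragments of the NS pool, and absence from the HS list is not a measured loss of binding. Shares over few peaks, such as the 20 at a fold enrichment of 4 or more, have wide intervals.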
